A study of Mus musculus with 34 samples.

Results

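Nrn1, Tg, Ms4a4b, Serpinb6b, Gap43, Tagap, Zbtb32 and Dock10 are 8 genes, of 27179 identifiers counted, that stood higher in cultures labelled TfhA_4e4 than in any other group. The gap was smallest for Zbtb32 and Tagap against Tfh2_1e4, with folds of 2.62 and 3.50. The 8 genes were chosen because they were strongly higher in TfhA_4e4, so their height in TfhA_4e4 is a description and carries no test. Differences among the remaining groups were not the ground of that choice. The levels in these groups were its other side, those of Tfh2_4e4 among them, so they are not fully apart from it.

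The study sequenced messenger RNA of mouse CD4 T cells, 34 libraries in all. Naive cells of C57BL/6 mice were stimulated on plates with antibodies to CD3 and CD28, kept in culture medium under different differentiation conditions for 3.5 days, and sorted by flow cytometry before RNA was taken. Each library title carries a culture code and a number, and these define 6 groups: Tfh2_1e4 (6 libraries), Tfh2_2e4 (5), Tfh2_4e4 (6), Tfh2_6e4 (6), Tfh5_4e4 (6) and TfhA_4e4 (5). The meaning of the codes Tfh2, Tfh5 and TfhA, the unit of the number and the sorting gate are not given in the sources used here, and all groups share the strain, the antibody stimulation and the culture time. No label states whether replicates were separate mice or cultures, so p-values measure only the spread between these libraries, which may be technical. In bulk RNA, fewer cells of a type and less RNA per cell cannot be told apart.

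As background, the 8 genes come from unrelated families. Nrn1 encodes neuritin, a membrane-anchored neurotrophic protein that regulatory T cells also make, and Gap43 encodes a protein of growing axon tips. Tg encodes thyroglobulin, the protein from which thyroid hormone is cut. Ms4a4b encodes a membrane-spanning protein of T cells from the MS4A family, and Serpinb6b an intracellular inhibitor of serine proteases. Tagap is a GTPase-activating protein named for its induction on T cell activation, and Dock10 is an exchange factor that loads Cdc42 and Rac. Zbtb32 is a BTB zinc finger repressor known for restraining cytokine genes in activated T cells.

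RefSeq promoter windows (GRCm38.p6, 250 bases before to 50 after an annotated start) were at hand for 5 of the 8 genes, 7 windows in all: Dock10, Zbtb32, Serpinb6b, Tagap and Ms4a4b. They were searched on both strands for TGANTCA (AP-1), TTCNNNGAA (STAT) and GGTGTGA (T-box). The window of Ms4a4b was the 1 of 7 with a match, shown in capitals and lying just after the start. It is TGAATCA, a match to the loose pattern TGANTCA, in which any middle base counts. Among all 32851 promoters, 7.81% held TGANTCA, 8.30% held TTCNNNGAA and 3.98% held GGTGTGA. The windows of Tagap and Zbtb32 are shown beside it, because these 2 genes fell together across the Tfh2 groups while Ms4a4b did not. The Ms4a4b window is chr19:11443308-11443607 on the plus strand, that of Tagap is chr17:7925750-7926049 on the plus strand, and the Zbtb32 window upstream of the other is chr7:30598860-30599159 on the minus strand. A match is a description of letters and not a binding site.
Ms4a4b: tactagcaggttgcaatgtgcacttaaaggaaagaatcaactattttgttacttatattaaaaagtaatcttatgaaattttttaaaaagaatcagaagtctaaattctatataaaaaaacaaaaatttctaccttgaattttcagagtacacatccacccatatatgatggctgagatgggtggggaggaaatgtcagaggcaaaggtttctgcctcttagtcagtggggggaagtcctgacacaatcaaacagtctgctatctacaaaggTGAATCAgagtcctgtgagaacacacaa
Tagap: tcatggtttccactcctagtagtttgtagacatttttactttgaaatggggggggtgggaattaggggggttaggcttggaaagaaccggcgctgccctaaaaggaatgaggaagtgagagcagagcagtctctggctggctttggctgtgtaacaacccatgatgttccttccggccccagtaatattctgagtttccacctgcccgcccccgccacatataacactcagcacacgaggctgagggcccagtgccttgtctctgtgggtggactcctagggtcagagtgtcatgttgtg
Zbtb32: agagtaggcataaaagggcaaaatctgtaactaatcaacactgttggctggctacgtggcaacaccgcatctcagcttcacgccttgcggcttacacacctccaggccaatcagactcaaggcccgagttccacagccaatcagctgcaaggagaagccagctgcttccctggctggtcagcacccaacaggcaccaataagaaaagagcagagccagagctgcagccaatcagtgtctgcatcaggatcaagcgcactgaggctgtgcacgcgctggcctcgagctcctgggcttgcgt

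Total counts were 4481509 to 9934245 per library, and 11357 genes were frequent enough to be tested. Levels are given in CPM, a library's counts brought to a shared total after normalization. The libraries read the 3′ end of transcripts, so a level does not scale with transcript length. The summed level of 8 CD4 T cell markers (Cd3e, Cd3d, Cd3g, Cd4, Cd28, Cd2, Cd5 and Lck) was 1715 to 2531 CPM over all libraries, and none of the 8 was at 0 in any group. The sum differed between groups: it was 1831 to 1934 CPM in TfhA_4e4, below all Tfh2_4e4 libraries (2186 to 2434 CPM), and its group medians were 1906, 2114, 2364 and 2429 CPM from Tfh2_1e4 to Tfh2_6e4. Mitochondrial ribosomal RNA took 7.69% ± 1.31 (SD, n = 5) of all counts in TfhA_4e4, against group means of 4.61% to 5.07% elsewhere. The part of either in the height of the 8 genes in TfhA_4e4, and that of the marker sum in the differences among the Tfh2 groups, was not tested. The 2 libraries Tfh2_4e4 replicate 3 and Tfh2_2e4 replicate 6 lie apart from their groups in these genes and were singled out with their values known, and the comparisons among groups are given with and without them where the value or the call differed.

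Nrn1 was the most abundant of the 8 in TfhA_4e4, at 282, 303, 291, 392 and 398 CPM (counts of 1421 to 3273). Tfh2_1e4 was lowest, with a range of 1.08 to 7.25 CPM and a median of 1.87. Replicates 5 and 6 of that group, at 7.25 and 6.49 CPM, lay above the 4 others, which did not exceed 1.87. Tfh2_2e4 held 4.12, 9.35, 12.7, 18.5 and, in replicate 6, 61.1 CPM. Tfh2_4e4 ranged from 17.3 to 90.0 CPM with a median of 26.6, and replicate 3 was the 90.0. Tfh2_6e4 ranged from 18.2 to 30.5 CPM (median 25.7) and Tfh5_4e4 from 9.54 to 14.9 CPM (median 12.8). In the order of means, neighbouring groups between TfhA_4e4 and Tfh2_1e4 overlapped, while Tfh2_1e4 lay below all Tfh5_4e4 libraries.

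Tg was the most even of the 8 in TfhA_4e4, at 118, 111, 112, 118 and 104 CPM, where the highest library was 1.13 times the lowest. Tfh2_1e4 again lay lowest, at 0.872 to 2.79 CPM (median 1.69). The level was 7.01, 7.56, 7.87, 9.45 and, in replicate 6, 16.4 CPM in Tfh2_2e4. It was 7.65 to 30.1 CPM (median 9.52) in Tfh2_4e4, 8.05 to 21.4 CPM (median 16.5) in Tfh2_6e4 and 6.25 to 9.67 CPM (median 8.81) in Tfh5_4e4. Sla, an adaptor of T cell receptor signalling, lies inside Tg on the opposite strand (chr15:66780819-66831829) and shares 0 exonic bases with it. An antisense gene, Gm17140, covers 112 of the 8883 exonic bases of Tg. Sla stood at 44.1 to 47.8 CPM in TfhA_4e4 and 32.7 to 55.3 CPM in Tfh2_4e4, ranges that overlap.

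Ms4a4b stood at 84.3, 74.5, 66.4, 102 and 78.2 CPM in TfhA_4e4. Outside it the gene was scarce: 0.780 to 3.34 CPM in Tfh2_1e4 (median 1.58), 1.34 to 17.2 CPM in Tfh2_4e4 (median 2.53), 2.51 to 5.06 CPM in Tfh2_6e4 (median 4.50) and 1.11 to 3.64 CPM in Tfh5_4e4 (median 2.26). Tfh2_2e4 held 3.02, 0.640, 2.11, 3.03 and, in replicate 6, 14.0 CPM. All groups outside TfhA_4e4 overlapped their neighbours in the order of means.

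Serpinb6b spanned from 0 counts to 244 CPM. It stood at 124, 223, 189, 244 and 185 CPM in TfhA_4e4 and at 0 to 1.04 CPM in Tfh2_1e4 (median 0.878). Replicate 5 of Tfh2_1e4 and replicate 1 of Tfh2_2e4 had a count of 0, which allows up to 3 counts. The other Tfh2_2e4 libraries held 0.256, 2.11, 0.567 and, in replicate 6, 34.5 CPM. Tfh2_4e4 ran from 0.987 to 26.2 CPM (median 1.72), Tfh2_6e4 from 1.74 to 4.45 CPM (median 2.83) and Tfh5_4e4 from 0.280 to 3.32 CPM (median 1.59). Leaving the 2 libraries aside, no library outside TfhA_4e4 passed 4.45 CPM, and the lowest TfhA_4e4 library was 28.0 times that level.

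Gap43 stood at 87.5, 66.3, 92.8, 80.7 and 82.7 CPM in TfhA_4e4. Elsewhere it was low: 4.36 to 12.3 CPM in Tfh2_1e4 (median 7.55), 1.10 to 24.8 CPM in Tfh2_4e4 (median 4.81), 0 to 3.53 CPM in Tfh2_6e4 (median 2.36) and 0.354 to 4.70 CPM in Tfh5_4e4 (median 2.40). Tfh2_2e4 held 4.12, 7.56, 2.81, 7.75 and 13.2 CPM. The 5 neuron markers (Rbfox3, Snap25, Syt1, Tubb3 and Map2) summed to 0.235 to 1.80 CPM in TfhA_4e4 and to at most 6.04 CPM in any library. Rbfox3 and Snap25 were at 0 in TfhA_4e4.

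Tagap and Zbtb32 had another order of groups: outside TfhA_4e4 they were highest in Tfh2_1e4. Tagap stood at 51.3, 75.0, 90.1, 85.7 and 61.5 CPM in TfhA_4e4 and at 15.8 to 29.6 CPM (median 20.6) in Tfh2_1e4. It went through 12.1, 14.0, 11.2, 16.3 and 34.1 CPM in Tfh2_2e4 to 2.24 to 19.1 CPM (median 5.91) in Tfh2_4e4. Tfh2_6e4 was lowest, at 1.46 to 8.69 CPM (median 3.77), and Tfh5_4e4 held 6.87 to 12.3 CPM (median 9.59). Of the 50-base stretches in the last 500 bases of the Tagap transcript, 48.6% also occur in Tagap1, a near copy elsewhere on chromosome 17, so reads between these genes may be split or lost in counting. Tagap1 stood at 5.17 to 13.9 CPM in TfhA_4e4 and 6.22 to 13.8 CPM in Tfh2_4e4 (log2 difference 0.09, edgeR adjusted p = 0.843). An antisense gene, E430024P14Rik, also covers 716 exonic bases of Tagap, and without the strand setting of the counting its reads cannot be told apart.

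Zbtb32 stood at 70.4, 51.6, 62.6, 49.4 and 50.5 CPM in TfhA_4e4. In Tfh2_1e4 it ranged from 14.1 to 24.8 CPM (median 23.1), and Tfh2_2e4 held 19.2, 13.8, 12.9, 12.7 and 17.0 CPM. It ranged from 3.18 to 20.4 CPM (median 5.68) in Tfh2_4e4, from 2.28 to 5.21 CPM (median 3.19) in Tfh2_6e4 and from 4.74 to 10.4 CPM (median 8.81) in Tfh5_4e4. The libraries of Tfh2_1e4 and Tfh2_6e4 did not overlap.

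Dock10 was nearly level across the Tfh2 groups and lowest in Tfh5_4e4. It stood at 66.0, 47.4, 43.2, 54.6 and 64.1 CPM in TfhA_4e4, and every other library lay between 2.68 and 12.7 CPM. The group medians there were 6.03 CPM in Tfh2_1e4, 7.78 in Tfh2_2e4, 6.08 in Tfh2_4e4, 6.24 in Tfh2_6e4 and 4.23 in Tfh5_4e4, and all of these groups overlapped their neighbours.

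**Figure D1:**
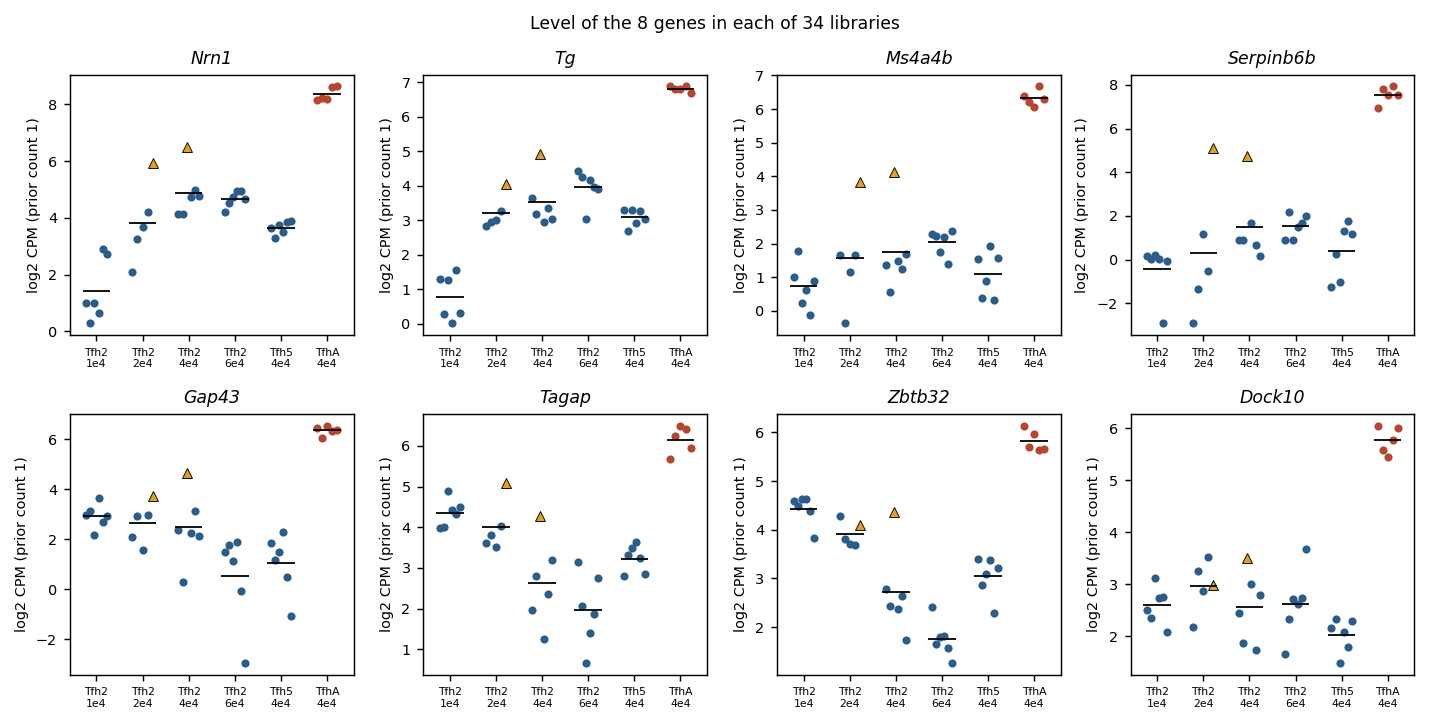
Level of each gene (log2 CPM, prior count 1, vertical axis) in the 34 libraries, by group (horizontal axis), with the group mean as a line. Red points are TfhA_4e4, blue points the other groups, and yellow triangles Tfh2_4e4 replicate 3 and Tfh2_2e4 replicate 6; every red point lies above all others, and among the 4 Tfh2 groups Tfh2_1e4 is lowest for Nrn1 and Tg and highest for Tagap and Zbtb32.

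For each of the 8 genes the lowest TfhA_4e4 library lay above the highest of the 29 other libraries. The ratio of these 2 libraries was 3.86 for Ms4a4b, 3.61 for Serpinb6b, 3.46 for Tg, 3.41 for Dock10, 3.14 for Nrn1, 2.67 for Gap43, 2.00 for Zbtb32 and 1.50 for Tagap. The highest other library was Tfh2_4e4 replicate 3 for Nrn1, Tg, Gap43 and Ms4a4b, and Tfh2_2e4 replicate 6 for Tagap and Serpinb6b. Without these 2 libraries the ratio was 8.95 for Nrn1, 4.86 for Tg, 13.1 for Ms4a4b, 5.38 for Gap43 and 1.73 for Tagap.

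The log2 fold change of TfhA_4e4 against Tfh2_4e4 ran from 2.86 for Zbtb32 to 4.99 for Serpinb6b. In that comparison 32.8% of all tested genes passed an adjusted p of 0.05 in edgeR, 15.5% of all tested genes higher in TfhA_4e4 and 17.4% lower, and all 8 genes were among the higher ones, a count that their choice fixes. Among the 7007 genes with a mean of at least 3 on the log2 CPM scale, Serpinb6b ranked 2, Ms4a4b 7, Gap43 15, Nrn1 16, Tagap 17, Tg 19, Dock10 20 and Zbtb32 24 by fold. Leaving out Tfh2_4e4 replicate 3 raised Serpinb6b from 4.99 to 6.75, Ms4a4b from 4.03 to 5.09, Gap43 from 3.33 to 4.13 and Zbtb32 from 2.86 to 3.44.

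Comparisons of TfhA_4e4 with the several groups share the TfhA_4e4 libraries, and the values stand side by side only as a description. Against Tfh2_1e4 and against Tfh2_6e4, Nrn1 was higher by 6.63 and 3.71 on the log2 scale and Tg by 6.02 and 2.81. Tagap was higher by 1.81 and 3.99 and Zbtb32 by 1.39 and 4.07. Dock10 was higher by 3.18 and 3.06. Against Tfh5_4e4 the 8 values ran from 2.76 for Zbtb32 to 6.97 for Serpinb6b.

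**Figure D2:**
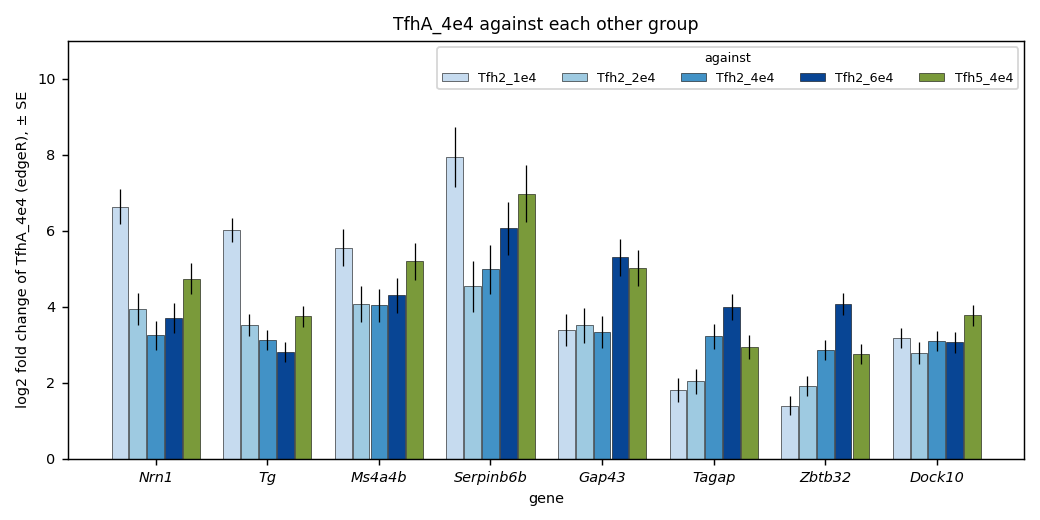
Log2 fold change of TfhA_4e4 (vertical axis, edgeR, bars with ± 1 SE) against each of the 5 other groups (colours) for the 8 genes (horizontal axis). Among the 4 Tfh2 groups the bar against Tfh2_1e4 is highest for Nrn1 and Tg and lowest for Tagap and Zbtb32, and the bars of Dock10 lie between 2.78 and 3.77; the genes were chosen for this height, so the bars carry no test.

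The comparison of Tfh2_6e4 with Tfh2_1e4 contrasts no TfhA_4e4 or Tfh2_4e4 library, and asks how the genes differ between the ends of the Tfh2 label numbers. Both groups are still among those that TfhA_4e4 had to exceed, so the comparison is not fully apart from the choice. In this comparison 3 of the 8 genes were higher in Tfh2_6e4, 3 were lower and 2 did not pass, and 43% of all tested genes passed (22.3% higher, 20.7% lower). Tg rose by a log2 change of 3.21 (SE 0.30, edgeR adjusted p = 2.93e-12) and Nrn1 by 2.92 (SE 0.44, edgeR adjusted p = 3.75e-07). Zbtb32 fell by 2.68 (SE 0.28, edgeR adjusted p = 5.56e-11), Tagap fell by 2.19 (SE 0.33, edgeR adjusted p = 5.68e-07) and Gap43 fell by 1.90 (SE 0.48, edgeR adjusted p = 0.00112). For these 5 genes no Tfh2_1e4 library overlapped a Tfh2_6e4 library. The median over the 8 genes was 0.69, against -0.01 over all tested genes.

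Ms4a4b rose by 1.26 (SE 0.50, edgeR adjusted p = 0.0365), but the groups overlapped. Leaving out any of Tfh2_1e4 replicates 1, 3, 4, 5 and 6 or Tfh2_6e4 replicates 1, 2, 4 and 6 ended this call, with adjusted p from 0.0526 to 0.0859. Serpinb6b differed by 1.88 (95% interval -0.04 to 3.79, edgeR adjusted p = 0.108), although its Tfh2_6e4 libraries (1.74 to 4.45 CPM) all lay above those of Tfh2_1e4. The Tfh2_1e4 libraries held only 0 to 10 counts of Serpinb6b each, 45 in all. Without the 2 libraries that stand apart, which belong to neither of these groups but enter the shared filter, normalization and estimate of spread, Serpinb6b passed at 1.85 (edgeR adjusted p = 0.000369) and Ms4a4b at 1.24 (edgeR adjusted p = 0.000462). The count was then 4 higher and 3 lower of 8. Dock10 differed by 0.12 with a 95% interval of -0.41 to 0.65 (edgeR adjusted p = 0.736).

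Between the lowest numbers, Tfh2_2e4 against Tfh2_1e4, 5.26% of all tested genes passed (4.06% higher, 1.2% lower), and 3 of the 8 genes were higher in Tfh2_2e4 with none lower. Tg rose by a log2 change of 2.50 (SE 0.31, edgeR adjusted p = 1.44e-07) and Nrn1 by 2.69 (SE 0.45, edgeR adjusted p = 3.84e-05). The third, Serpinb6b, had a value of 3.39 that rested on 1 library: without Tfh2_2e4 replicate 6 it was -0.10 (edgeR adjusted p = 0.985). Without both libraries that stand apart Tg still rose by 2.18 (edgeR adjusted p = 1.06e-08) and Nrn1 by 1.69 (edgeR adjusted p = 0.000399). With only numbers 1 to 3, a fit with fewer libraries, Tg passed and Nrn1 did not (edgeR adjusted p = 0.112). Ms4a4b differed by 1.49 in the full set (edgeR adjusted p = 0.0794) and by 0.31 without both (edgeR adjusted p = 0.775). Zbtb32 differed by -0.52 (95% interval -1.03 to -0.0019, edgeR adjusted p = 0.315) and Tagap by -0.23 (95% interval -0.86 to 0.40, edgeR adjusted p = 0.826).

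A slope through the means of the 4 Tfh2 groups against the log2 number, which includes the Tfh2_4e4 libraries of the choice, gave the change per doubling. Of all tested genes 46.9% passed (24.1% higher, 22.8% lower), and of the 8 genes 3 rose and 3 fell. Tg rose by 1.18 per doubling (SE 0.11, edgeR adjusted p = 1.67e-12) and Nrn1 by 1.15 (SE 0.16, edgeR adjusted p = 5.72e-08). Zbtb32 fell by 0.995 (SE 0.10, edgeR adjusted p = 6.15e-12), Tagap fell by 0.86 (SE 0.12, edgeR adjusted p = 3.42e-08) and Gap43 fell by 0.56 (SE 0.17, edgeR adjusted p = 0.00467). Ms4a4b rose by 0.47 (edgeR adjusted p = 0.0269), a call lost on leaving out Tfh2_1e4 replicate 3, 4 or 5, Tfh2_4e4 replicate 3 or Tfh2_6e4 replicate 6, with adjusted p from 0.0508 to 0.0934. In a slope without the Tfh2_4e4 mean, 2 of the 8 genes rose and 3 fell, and the Ms4a4b call was lost. That call was also lost with only the groups compared and with only numbers 4 to 6. Serpinb6b had a slope of 0.69 (edgeR adjusted p = 0.0873), and 0.75 without both libraries (edgeR adjusted p = 0.000135). Dock10 had a slope of 0.01 with a 95% interval of -0.18 to 0.20.

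With the mitochondrial ribosomal RNA share of the counts outside the unnamed pair of identifiers as a covariate, Nrn1, Tg, Zbtb32, Tagap and Gap43 passed in the same direction both between the ends and in the slope. Ms4a4b did not, at 0.97 between the ends (edgeR adjusted p = 0.137).

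**Figure D3:**
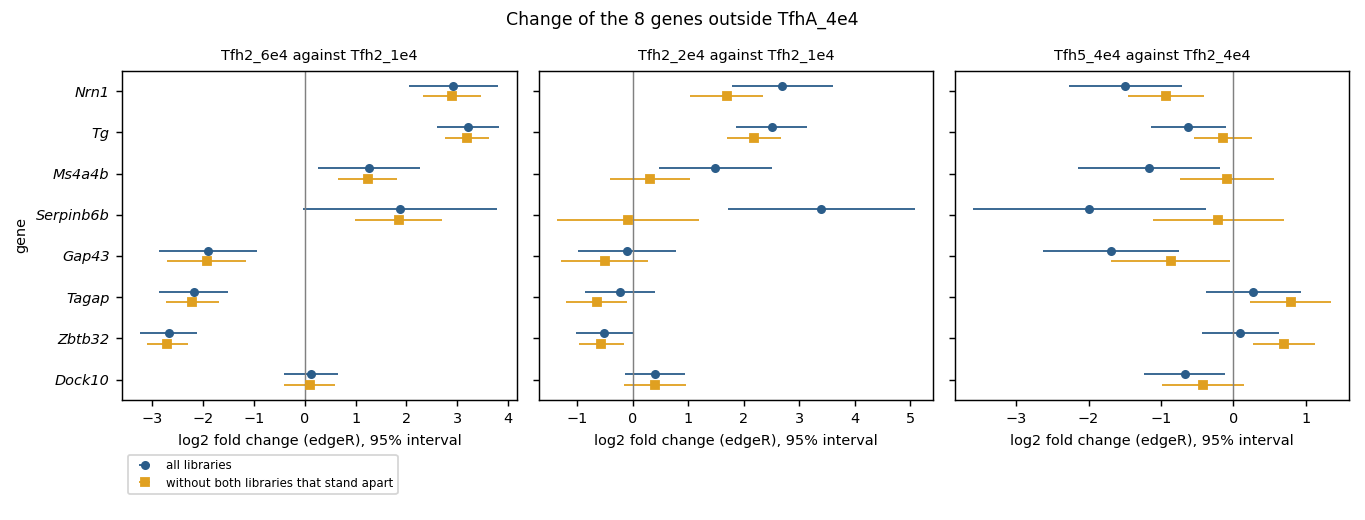
Log2 fold change (horizontal axis, edgeR, with 95% intervals) of the 8 genes (vertical axis) in 3 comparisons outside TfhA_4e4, with all libraries (blue circles) and without Tfh2_4e4 replicate 3 and Tfh2_2e4 replicate 6 (yellow squares). Tg and Nrn1 lie right of 0 and Zbtb32, Tagap and Gap43 left of 0 between the ends of the Tfh2 numbers; Serpinb6b moves from 3.39 to -0.10 in the middle panel.

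Tfh5_4e4 against Tfh2_4e4 compares 2 codes at the same number, and shares the Tfh2_4e4 libraries with the choice of the genes. Here 3.11% of all tested genes passed, 1.41% higher and 1.7% lower in Tfh5_4e4. Nrn1 and Gap43, 2 of the 8, were lower in Tfh5_4e4, Nrn1 by a log2 change of -1.49 (SE 0.38, edgeR adjusted p = 0.0207) and Gap43 by -1.69 (SE 0.47, edgeR adjusted p = 0.0326). All 6 Tfh5_4e4 libraries lay below all Tfh2_4e4 libraries for Nrn1 (9.54 to 14.9 against 17.3 to 90.0 CPM), while the groups overlapped for Gap43. Without Tfh2_4e4 replicate 3, Nrn1 stood at -0.93 (edgeR adjusted p = 0.185) and Gap43 at -0.87 (edgeR adjusted p = 0.393). Without both libraries that stand apart, Nrn1 passed at -0.93 (edgeR adjusted p = 0.0415) and Gap43 did not at -0.86 (edgeR adjusted p = 0.350). Leaving out Tfh5_4e4 replicate 2 also ended the Nrn1 call (edgeR adjusted p = 0.0540), and leaving out Tfh2_4e4 replicate 5 or Tfh5_4e4 replicate 2, 3, 5 or 6 ended that of Gap43 (adjusted p from 0.0510 to 0.0870). With DESeq2, with limma-voom and with only the groups compared, the Nrn1 call stayed and the Gap43 call was lost. With only numbers 4 to 6 neither gene passed. With only numbers 1 to 3, Nrn1 and Serpinb6b were lower and Gap43 did not pass. Without the filter on low counts 4 of the 8 genes were lower. In the full set the other 6 genes did not pass, with values from -1.99 for Serpinb6b (edgeR adjusted p = 0.195) to 0.28 for Tagap (95% interval -0.38 to 0.93). Dock10 was among them, at -0.67 (95% interval -1.23 to -0.12, edgeR adjusted p = 0.210). Serpinb6b passed once Tfh2_2e4 replicate 6 was left out (-1.98, edgeR adjusted p = 0.0418), and without both libraries it stood at -0.21 (edgeR adjusted p = 0.913).

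Tfh2_4e4 replicate 3 lay above all 5 other libraries of its group for all 8 genes. Serpinb6b stood at 26.2 CPM there against a mean of 1.78 in the others, Ms4a4b at 17.2 against 2.34, Gap43 at 24.8 against 4.74, and Dock10 at 11.2 against 5.37. Placed on the line from the mean of the others to the TfhA_4e4 mean, the library lay at 11.8% of the distance for Dock10, 12.8% for Serpinb6b, 18.9% for Ms4a4b, 20.1% for Tg, 20.4% for Tagap, 21.4% for Nrn1, 26.0% for Gap43 and 29.3% for Zbtb32. The median was 20.2%.

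Tfh2_2e4 replicate 6 lay above its group for 6 of the 8 genes, and within it for Dock10 (7.78 CPM) and Zbtb32 (17.0 CPM). Serpinb6b stood at 34.5 CPM against a mean of 0.733 in the 4 others, Nrn1 at 61.1 against 11.2, and Tagap at 34.1 against 13.4. Its place on the line to TfhA_4e4 ranged from -0.67% for Dock10 to 34.9% for Tagap, with a median of 12.4%. No other library outside TfhA_4e4 was the highest of its group for more than 3 of the 8 genes.

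**Figure D4:**
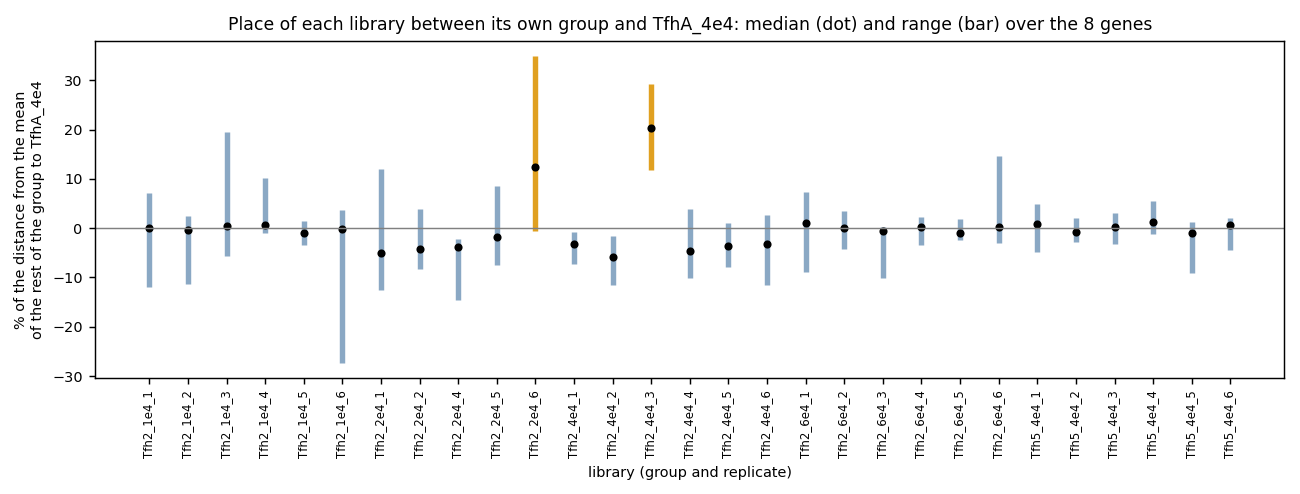
Place of each of the 29 libraries outside TfhA_4e4 (horizontal axis) between the mean of the rest of its group (0%) and the TfhA_4e4 mean (100%, outside the axis), in percent of that distance (vertical axis), as median (dot) and range (bar) over the 8 genes. The yellow bars, Tfh2_4e4 replicate 3 with a median of 20.2% and Tfh2_2e4 replicate 6 with 12.4%, hold the highest medians.

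Among markers of CD8 T and NK cells (Cd8a, Cd8b1, Nkg7, Klrk1, Klrd1, Ncr1 and Eomes), Nkg7, a granule membrane protein of cytotoxic cells, was high in the same libraries as the 8 genes. It stood at 85.0 to 125 CPM in TfhA_4e4, at 19.0 CPM in Tfh2_4e4 replicate 3 and at 11.3 CPM in Tfh2_2e4 replicate 6, and at most at 5.76 CPM in the other libraries. The 7 markers summed to 101 to 147 CPM in TfhA_4e4 and to 9.66 to 29.8 CPM elsewhere. Without Nkg7 the other 6 summed to 15.5 to 24.5 CPM in TfhA_4e4 and 7.58 to 27.7 CPM elsewhere, ranges that overlap, with 10.8 CPM in Tfh2_4e4 replicate 3 and 15.9 CPM in Tfh2_2e4 replicate 6. Ncr1, which marks NK cells, was at 0 in all 6 groups, and Cd8a did not pass 0.596 CPM in TfhA_4e4. Myeloid cell markers (Lyz2, Csf1r, Cd14, Itgam, Fcgr3, Cd68 and Adgre1) summed to at most 2.35 CPM in any library.

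The relatives of the 8 genes were compared between TfhA_4e4 and Tfh2_4e4 without the 8 themselves. A gene frequent enough to be tested only because it is high in TfhA_4e4 had to differ, so counts cover relatives that pass the filter on low counts in the 29 other libraries alone. Of all tested genes 11080 did so, of which 14.5% were higher and 17.8% lower. All 8 chosen genes did too, while 6 relatives did not and are described by their levels with no test. In the MS4A family, grouped on chromosome 19, 2 relatives of 17 listed passed that filter and both were higher in TfhA_4e4. Ms4a6b rose by 2.06 (edgeR adjusted p = 4.95e-14), from 39.2 ± 9.49 CPM (SD, n = 6) to 164 ± 17.8 CPM (SD, n = 5), and Ms4a6c by 1.34 (edgeR adjusted p = 0.00127). Both were also higher in Tfh2_6e4 than in Tfh2_1e4, by 1.58 and 1.13 (edgeR adjusted p = 8.87e-11 and 0.00576). Ms4a4c stood at 1.59 to 3.47 CPM in TfhA_4e4 and at most at 0.703 CPM elsewhere, and Ms4a6d at 2.32 to 3.78 CPM and at most at 2.04 CPM elsewhere.

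Of the clade B serpins, 3 of 13 listed relatives passed that filter, 2 higher and 1 lower. Serpinb5 rose by 1.54 (edgeR adjusted p = 0.000396) and Serpinb6a by 0.62 (edgeR adjusted p = 0.00128). Serpinb1a, an inhibitor of neutrophil-type proteases, fell by 5.76 (edgeR adjusted p = 1.004e-22), from 55.4 ± 12.7 CPM (SD, n = 6) to 0.969 ± 0.642 CPM (SD, n = 5). Serpinb9, the inhibitor of granzyme B, was among the 6 without a test. It stood at 30.1 to 35.4 CPM in TfhA_4e4 and at most at 3.52 CPM elsewhere but for Tfh2_4e4 replicate 3, at 7.38 CPM.

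Of the granzymes and granule proteins 4 of 14 passed that filter, and all 4 were lower. The proteases Ctsw, Ctsl and Ctsc fell by 3.65, 1.89 and 1.41 (edgeR adjusted p = 1.87e-22, 1.26e-09 and 3.52e-10). The fourth that was lower was Srgn, the core protein of granule proteoglycan, by -0.59 (edgeR adjusted p = 0.0288). Gzmb, the granule protease granzyme B, also has no test. It stood at 36.4 to 60.5 CPM in TfhA_4e4, at 15.8 CPM in Tfh2_2e4 replicate 6, at 5.16 CPM in Tfh2_4e4 replicate 3 and at most at 2.06 CPM in the other libraries.

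The families of the remaining genes were mixed. Of 7 DOCK factors 1 was higher and 1 lower: Dock11 rose by 0.63 (edgeR adjusted p = 0.00129) and Dock2, the main Rac exchange factor of lymphocytes, fell by 0.40 (edgeR adjusted p = 0.00199). Of 19 BTB zinc finger genes 4 were higher and 5 lower, and 4 and 6 without both libraries that stand apart. Zbtb38 and Hic1 rose by 0.89 and 0.78 (edgeR adjusted p = 9.44e-05 and 0.0141), and Zbtb2 and Zbtb24 fell by 1.26 and 1.09 (edgeR adjusted p = 0.00033 and 0.0232). Of 9 neuritin and growth-associated genes 2 were higher and 2 lower, leaving aside Ncam1, an adhesion molecule that did not pass the filter outside TfhA_4e4. Basp1, a growth cone protein like Gap43, rose by 0.59 (edgeR adjusted p = 2.58e-05) and Stmn1, a microtubule regulator, by 0.56 (edgeR adjusted p = 0.00685). Crmp1 fell by 3.08 (edgeR adjusted p = 3.72e-05) and Dbnl fell by 0.28 (edgeR adjusted p = 0.0346). Without both libraries that stand apart, Dbnl did not pass, at -0.27 (edgeR adjusted p = 0.0524).

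Genes lying over, next to or farther off on the chromosome from the 8 were also examined. Of the 7 that passed the filter outside TfhA_4e4, 3 were higher and 2 lower in TfhA_4e4. Ccn4, downstream of Tg on the same strand (chr15:66891369-66923201), stood at 18.9 to 24.0 CPM in TfhA_4e4 and at 0 to 5.51 CPM in Tfh2_4e4, where replicate 3 was highest among values of at most 0.439 CPM in the other 5. It did not pass that filter, was at 0 in all 6 Tfh5_4e4 libraries and has no test. Igflr1 and Ripk1 rose by 1.15 and 0.69 (edgeR adjusted p = 0.0018 and 1.01e-06) and Cul3 fell by 0.45 (edgeR adjusted p = 0.0163). Ripk1 (chr13:34002225-34035170) and Ezr (chr17:6738131-6782780), both among the 7, are not next to any of the 8. The nearest of the 8 to them are Serpinb6b (chr13:32956811-32979067) and Tagap (chr17:7926000-7934897). Fars2 overlaps 501 of the 2249 exonic bases of Nrn1 on the opposite strand. It stood at 8.50 to 15.7 CPM in TfhA_4e4 and 3.66 to 15.9 CPM in the other libraries, far below Nrn1 in TfhA_4e4 and overlapping in range.

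Among themselves, the 8 genes correlated positively in all 28 pairs over the 34 libraries, with a median Pearson r of 0.70, a figure that carries the step to TfhA_4e4 used in their choice. Over the 27 libraries without TfhA_4e4 and the 2 that stand apart, 16 of the 28 pairs were negative and the median r was -0.05. Nrn1 and Tg stood at 0.85, Tagap and Zbtb32 at 0.79, and Nrn1 and Zbtb32 at -0.86. These points share the 5 groups and the sequencing depth of each library, and are given as a description.

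Likeness of other genes to each of the 8 over the 34 libraries carries the same step to TfhA_4e4. A gene raised there scores high for that reason alone, so the values are a description. By this measure the gene most like both Nrn1 and Tg was Ms4a6b (r of 0.97 and 0.96). The genes most like the others were Gstt2 for Dock10 (0.94) and Ms4a4b (0.93), Mthfd2 for Tagap (0.92), Dclk1 for Zbtb32 (0.95) and Cenpw for Gap43 (0.87). For Serpinb6b it was Ms4a4b (0.92). Over the 29 libraries outside TfhA_4e4, the genes closest to the mean standardized level of the 8 were Gstt2 (0.82), Cd200 (0.72), Ifi27 (0.70), Inhba (0.68) and S100a6 (0.66). This order rested on the 2 libraries that stand apart: without them the values were 0.52 for Gstt2, 0.28 for Cd200, 0.18 for Ifi27, 0.35 for Inhba and -0.35 for S100a6, and the closest genes were Gpr65 (0.64) and Stard4 (0.63). With 16 of the 28 pairs of the 8 genes negative there, their mean does not stand for a shared course. Inhba stood at 13.01 CPM in Tfh2_4e4 replicate 3 and 9.82 CPM in Tfh2_2e4 replicate 6, against a mean of 54.0 CPM in TfhA_4e4.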

How the data were processed

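The authors deposited whole-number counts per gene identifier, 1 table per library, made from 3′ libraries (Lexogen kit, per the labels' protocols). STAR 2.7.2b, featureCounts 1.6.4 and the build mm10 are listed in the submitters' processing notes, with no roles, and the strand setting and the handling of reads with several matches are not given in the sources used here. Of 27179 identifiers 25275 matched a symbol in RefSeq GRCm38.p6, from which coordinates were taken. A pair of identifiers without a symbol held 48.3% of all counts and stayed in the library totals. The overlap of exons and of 50-base stretches was counted in the mouse transcripts of GENCODE.

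One edgeR 4.0.16 model (R 4.3.3) covered the 34 libraries and 6 groups: TMM, filterByExpr by group, quasi-likelihood F-tests, two-sided, adjusted by Benjamini and Hochberg over 11357 genes with a threshold of 0.05. Log2 CPM used a prior count of 1. Intervals and the limit of 3 counts behind a 0 cover only what they are computed from, the spread between libraries and counting error. The fit was tested on simulated data. The members and gene lists were chosen with earlier results of these data known. Named besides the members were up to 4 genes per list, those with the largest change among the genes that passed at a mean log2 CPM of at least 1 (Srgn, Ms4a4c, Ms4a6d and Ncam1 were named after their values were seen), and for likeness the genes with the highest Pearson r. Alternatives were RLE size factors, library totals without the unnamed pair, no filter on low counts, DESeq2 1.42.0, limma-voom (limma 3.58.1) and a replicate block. Others were only the groups compared, a mitochondrial ribosomal RNA covariate, a slope without the Tfh2_4e4 mean, and each library left out in turn. Fits with only numbers 1 to 3, with only numbers 4 to 6 and with the range of numbers as a factor, the filter on the libraries outside TfhA_4e4, and likeness without the 2 libraries that stand apart were added after seeing the data. No pair of libraries agreed within sampling noise. The results of 3 of the gene and marker lists are not reported here.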

Additional observations from a re-analysis of the deposited data

Results flagged for a closer look

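For each of the 8 genes and 6 groups, the highest or lowest library was checked for a gap to its nearest neighbour too wide for a group of that size. Chance gives about 1 such library in 20 independent groups of normally spread values, and 13 of 48 groups held one. The 48 are 8 genes in the same 6 groups of libraries and are not independent. The rate is therefore no reference for the count, which carries no test. Tfh2_4e4 replicate 3 was too high for 6 genes: 90.0 CPM for Nrn1, 30.1 CPM for Tg, 20.4 CPM for Zbtb32, 26.2 CPM for Serpinb6b, 24.8 CPM for Gap43 and 17.2 CPM for Ms4a4b. Tfh2_2e4 replicate 6 was too high for 5 genes: 61.1 CPM for Nrn1, 16.4 CPM for Tg, 34.1 CPM for Tagap, 34.5 CPM for Serpinb6b and 14.0 CPM for Ms4a4b. The last pair were Dock10 in Tfh2_6e4 replicate 6, high at 12.7 CPM, and Serpinb6b in Tfh2_1e4 replicate 5, low at 0 CPM.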

How the results depend on the processing

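Over all alternatives run, Nrn1, Tg, Zbtb32 and Tagap kept their direction and their side of the threshold between Tfh2_6e4 and Tfh2_1e4. Serpinb6b in Tfh2_2e4 against Tfh2_1e4 ranged from -0.10 to 3.70 as each library was left out. The value was -0.10 without Tfh2_2e4 replicate 6 and -0.10 without both libraries that stand apart, and did not pass in either fit. It was -2.74 with only numbers 1 to 3 and did not pass. That fit held only replicates 1 and 2 of Tfh2_2e4, with Serpinb6b counts of 0 and 2. Thus the call was lost, and no fall was shown. Under limma-voom with all libraries the value was 1.10, and the call was lost as well. With only numbers 1 to 3 the genes called were 3243 between Tfh2_6e4 and Tfh2_1e4, 141 between Tfh2_2e4 and Tfh2_1e4 and 96 between Tfh5_4e4 and Tfh2_4e4. With only numbers 4 to 6 they were 359 for Tfh2_2e4 against Tfh2_1e4 and 122 for Tfh5_4e4 against Tfh2_4e4. Fewer libraries entered these fits.

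Leaving out each library in turn gave 5111 to 5436 genes called for the slope, 4619 to 4984 for Tfh2_6e4 against Tfh2_1e4, 428 to 612 for Tfh2_2e4 against Tfh2_1e4 and 239 to 403 for Tfh5_4e4 against Tfh2_4e4. Replicate numbers were not treated as pairs, since 15 of 80 pairs of libraries with the same number correlated above 0.1 after removal of group means. With a replicate block, 584 genes were called for Tfh5_4e4 against Tfh2_4e4 in place of 353, and no call of the 8 genes changed in any of the 4 comparisons tested. Gap43 lost its calls with only numbers 1 to 3 (-1.37 between Tfh2_6e4 and Tfh2_1e4, edgeR adjusted p = 0.0781). Depth limits Serpinb6b, Ms4a4b, Gap43 and Tg, with fewer than 10 counts in some libraries outside TfhA_4e4. For Serpinb6b this holds for most of Tfh2_1e4, where the libraries had 0 to 10 counts each and 45 in all.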
